A study of Mus musculus with 21 samples.

Results

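Complex I genes were taken as all listed genes whose symbol starts with Nduf or mt-Nd, which gave 51 of 12791 genes. They comprised 38 genes for subunits encoded in the nucleus, 8 assembly factors (symbols starting with Ndufaf) and 5 subunits encoded by mitochondrial DNA (mt-Nd1, mt-Nd2, mt-Nd4, mt-Nd5 and mt-Nd6). Every listed gene had at least 10 reads in each library, so all 51 were tested. The remaining mitochondrial genes of the complex, mt-Nd3 and mt-Nd4l, were not analysed here. Ndufa4 and Ndufa4l2 carry the complex I prefix, but their proteins are now assigned to cytochrome c oxidase (complex IV), and they are kept here under the rule.

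The RNA came from the whole uterus of C57BL/6J mice, an inbred strain, all of them wild type. The aged group had 6 libraries, of which 2 came from mice of 60 to 75 weeks and 4 from mice of 79 weeks. The younger groups were 7 libraries from 8-week-old and 7 from 5-week-old mice, 14 younger libraries in all. Mice of all 3 groups alike had been injected with PMSG (pregnant mare serum gonadotropin, a hormone with follicle-stimulating activity) 48 hours before dissection, at a dose of 5 or 7.5 units, so no group shows an untreated uterus. The labels do not assign the doses to animals. The libraries form 2 sets by sample name, replicate number and age of the aged mice. The later set has 4 aged, 5 8-week and 5 5-week libraries, and the earlier set has 2 of each group. Total reads were 19100690 to 30689439 in the later set and 12204573 to 14448283 in the earlier set.

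The header of 15 of 20 value columns names another sample than the one its file is attached to, and 2 of these headers (5w replicate 3 and 8w replicate 3) name another age group. The headers of 2 further columns (aged replicate 2 and aged replicate 5) name the other library set. Columns were assigned by header. Counts of calls are therefore also given without either pair. All 7 uterus marker genes looked for (Esr1, Pgr, Hoxa10, Hoxa11, Hoxd10, Msx1 and Emx2) were listed, and their summed level was 890 to 1628 CPM (counts per 1000000 reads of the listed genes) in aged and 614 to 1445 CPM in younger libraries.

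Complex I is the first enzyme of the respiratory chain. It passes electrons from NADH to ubiquinone and pumps protons across the inner mitochondrial membrane. Its NADH-binding and ubiquinone-reducing modules are encoded in the nucleus, while the mitochondrial genes encode the core of the proton-pumping membrane arm, and assembly factors join the modules without staying in the finished enzyme. In the uterus, as in other tissues, mitochondrial respiration supplies ATP to muscle, stroma and epithelium.

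The data are RNA levels, so the sequences shown are stretches upstream of the starts of genes named in the results, and the bases that a pair of mitochondrial genes shares. Of the 51 genes, 40 had a promoter entry of 300 bases in the RefSeq table (250 bases before to 50 after the start). Shown are 200 bases, from 250 to 51 bases before the start, for 4 nuclear genes that were called lower in aged uteri (GRCm38.p6). Capitals mark a match to the NRF1 core GCATGCGC, with adjoining bases of its match on the opposite strand, or to the ETS letters CCGGAAG, read on either strand.
Ndufa9 (chr6:126849195-126849394, minus strand): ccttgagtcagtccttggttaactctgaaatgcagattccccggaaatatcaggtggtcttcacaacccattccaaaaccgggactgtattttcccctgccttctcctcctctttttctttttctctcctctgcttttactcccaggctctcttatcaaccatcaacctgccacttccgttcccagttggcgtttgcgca
Ndufa11 (chr17:56717512-56717711, plus strand): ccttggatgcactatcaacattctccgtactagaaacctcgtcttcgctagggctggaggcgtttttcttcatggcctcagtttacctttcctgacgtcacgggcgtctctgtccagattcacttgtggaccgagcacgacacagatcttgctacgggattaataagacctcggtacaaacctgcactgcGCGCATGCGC
Ndufab1 (chr7:122101899-122102098, minus strand): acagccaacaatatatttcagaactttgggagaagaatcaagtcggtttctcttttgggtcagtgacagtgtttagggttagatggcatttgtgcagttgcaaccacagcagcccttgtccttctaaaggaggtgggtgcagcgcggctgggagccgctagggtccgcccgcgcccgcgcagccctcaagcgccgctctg
Ndufb6 (chr4:40279472-40279671, minus strand): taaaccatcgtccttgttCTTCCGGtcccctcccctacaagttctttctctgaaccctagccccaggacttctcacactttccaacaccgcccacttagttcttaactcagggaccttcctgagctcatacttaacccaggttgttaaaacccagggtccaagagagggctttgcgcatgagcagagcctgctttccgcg

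Searched over the whole 300 bases on both strands, GCATGCGC was found in 5 of the 40 members with an entry (12.5%), against 3.05% of 27025 genes in the table. The ETS letters CCGGAAG were found in 6 members (15.0%), against 9.93% of genes. The YY1 letters AAGATGGCG were found in 6 members (15.0%), against 1.64% of genes. The 6 members with the YY1 letters were Ndufa9, Ndufaf8, Ndufc1, Ndufs4, Ndufs6 and Ndufs7. In Ndufa9 the match began 29 bases after the start, outside the stretch printed. Matches are a description of letters, and binding was not measured.

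The genes mt-Nd5 and mt-Nd6 lie on opposite strands of mitochondrial DNA and share 14 bases at their ends (chrM:13552-13565, plus strand, GRCm38): ttaatctcgagtaa. The kit named in the labels, NEBNext Ultra, keeps no strand information, so reads from RNA of both strands there, and antisense reads within either gene, cannot be told apart.

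Levels per kilobase of annotated exon were highest for the mitochondrial genes. Their means over the 20 libraries were 3118 CPM per kilobase for mt-Nd1, 1651 for mt-Nd2, 1585 for mt-Nd4, 1392 for mt-Nd6 and 780 for mt-Nd5. The nuclear subunits had a median of 75.8 CPM per kilobase (3.27 to 256), with Ndufa4 at 256. Lengths join the exons of all annotated transcripts of a gene, so levels of genes with several transcripts can be understated. The joined length was 5628 bp for Ndufb2, the lowest, and 519 to 1824 bp for the mitochondrial genes. The assembly factors had a median of 9.20 CPM per kilobase (5.44 to 32.5). The order within the mitochondrial genes differed between sets, with mt-Nd5 lowest at 833 CPM per kilobase in the later set and mt-Nd4 lowest at 529 in the earlier set. In both sets each mitochondrial gene was above every nuclear member on this scale, of which Ndufa4 was highest at 280 in the later and 202 in the earlier set.

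Aged uteri had more RNA of the mitochondrial genes mt-Nd5 and mt-Nd6 and less of a few nuclear subunits than 8-week uteri. Of the 5 mitochondrial genes, 2 rose and none fell, with a median log2 difference of 0.45 (0.19 to 0.89). Of the 38 nuclear subunits, 5 fell (Ndufa9, Ndufs1, Ndufa11, Ndufab1 and Ndufb6) and none rose, with a median of -0.21 (-0.79 to 0.29). Of the 8 assembly factors none passed, with a median of -0.27 (-0.84 to 0.06). The median over all genes was 0.05. Within the sets, the median of the mitochondrial genes was 0.19 in the later and 1.01 in the earlier set, and that of the nuclear subunits -0.10 in the later and -0.44 in the earlier set. Calls are limma tests on log2(CPM + 1) with a term for the library set and a Benjamini-Hochberg adjusted p below 0.05 over 12791 genes. Over all genes, 8.53% were called lower and 8.64% higher in aged than in 8-week uteri, so 5 of 38 nuclear subunits is a share of the same order as the background.

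Against 5-week uteri, 2 mitochondrial genes rose (median 0.53, 0.24 to 0.85) and 6 nuclear subunits fell (median -0.31, -0.76 to 0.23). They were the 7 genes named above and Ndufa4. No assembly factor passed (median -0.27). The median over all genes was 0.09, and 9.41% of genes were called lower and 12.7% higher. Both comparisons share the aged libraries, so their likeness is no second observation. With TMM scaling the split over all genes was 1702 lower and 1518 higher, and with quantile normalization 1497 lower and 1462 higher, against 1203 and 1622 as fitted; the 2 mitochondrial genes stayed higher and the 6 nuclear subunits lower in both.

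**Figure D1:**
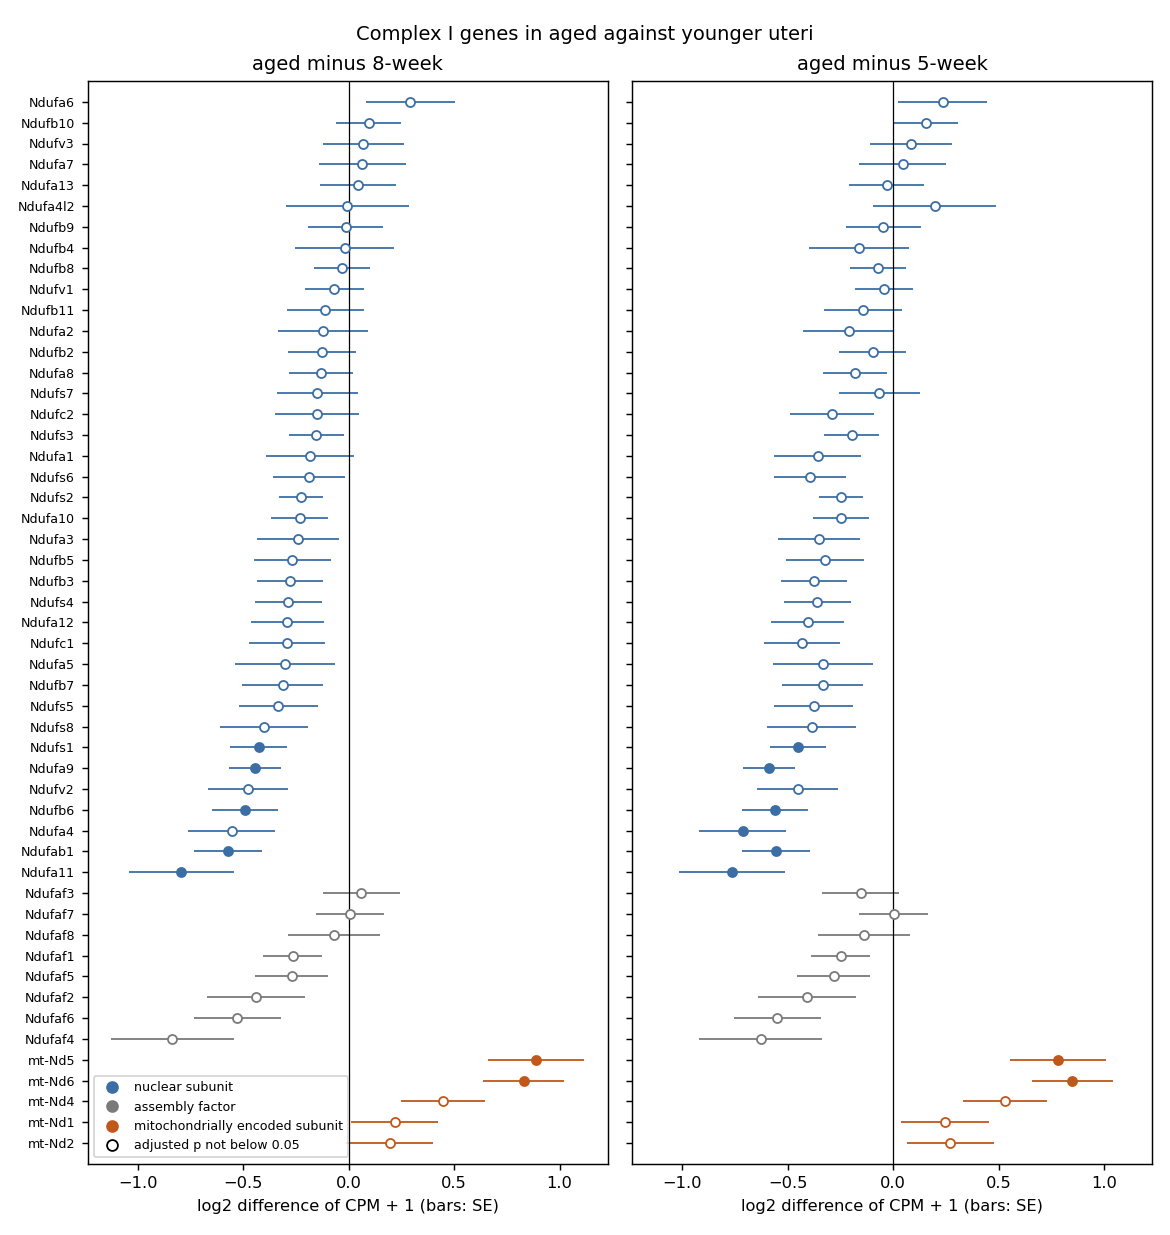
Log2 difference (CPM + 1) of the 51 genes for aged minus 8-week uteri on the left and aged minus 5-week uteri on the right. Points are limma estimates, bars their SE, filled points have an adjusted p below 0.05, and colours give the 3 classes. In both panels all 5 mitochondrial genes lie right of 0 and 33 of 38 nuclear subunits left of it. Over all 12791 genes, 5802 estimates were negative against 8 weeks and 5492 against 5 weeks. The panels share the aged libraries and most nuclear subunits varied together between libraries, so these signs are not separate observations.

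These counts rest on few libraries. Without 5w replicate 3 and 8w replicate 3, 4 members were called against 8-week uteri (Ndufa9, Ndufab1, mt-Nd5 and mt-Nd6) and 9 against 5-week uteri. Without aged replicates 2 and 5 together, also chosen after seeing the data, 4 members were called against 8-week uteri (Ndufa9, Ndufs1, Ndufab1 and mt-Nd6) and 5 against 5-week uteri (these and Ndufa4), and mt-Nd5 passed in neither comparison (0.0672 and 0.107). The count of 7 against 8-week uteri fell to 2 without aged replicate 1, to 3 without 8w replicate 1 or 8w replicate 2, and to 4 without aged replicate 2, aged replicate 7, 8w replicate 3 or 8w replicate 5. The count of 8 against 5-week uteri fell to 4 without aged replicate 1. In the later set alone no member was called in either comparison with limma (3 and 5 members had an unadjusted p below 0.05), while 1.43% and 4.09% of all genes were called there. In the earlier set alone 19 and 10 members were called, against 28.2% and 20.4% of all genes, so that the 10 of 51 is a share near the background. The test of whether the age difference itself differed between the sets called 0 of the 51 members and 0.43% of all genes. At an unadjusted p below 0.05 it took 7 members and 14.1% of all genes, shares of the same order, and voom weights called no member.

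mt-Nd6 encodes a membrane-arm core subunit, the only protein gene on its strand of mitochondrial DNA (chrM:13552-14070, minus strand, GRCm38). In the earlier set it had 684 and 708 CPM in aged libraries, against 311 and 261 CPM in 8-week and 370.0 and 239 CPM in 5-week libraries. Aged libraries of the later set had 1286, 1084, 875 and 1288 CPM, against 523 to 1053 CPM (median 665) in the 10 younger ones. The groups did not overlap in the earlier set, while aged replicate 6 of the later set lay within the younger range. The share of all genes that do not overlap in the earlier set was not counted, for this gene or those below. The log2 difference was 0.83 ± 0.19 (SE) against 8 weeks (adjusted p = 0.00652, limma), with 1.28 in the earlier and 0.62 in the later set. Against 5 weeks it was 0.85 ± 0.19 (adjusted p = 0.00416, limma). Both calls held when any of the 20 libraries was left out. Neither held without the set term (0.190 and 0.152) or in the later set alone (0.229 and 0.124). With columns attached by file the call against 8 weeks was lost (0.0650) and that against 5 weeks held (0.0139).

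mt-Nd5 encodes a large proton-pumping subunit at the far end of the membrane arm (chrM:11742-13565, plus strand). In the earlier set it had 1960 and 2094 CPM in aged libraries, against 640 and 759 CPM at 8 weeks and 1014 and 713 CPM at 5 weeks. Aged libraries of the later set had 2095, 2801, 1137 and 2023 CPM, against 939 to 2092 CPM (median 1245) in younger ones. Aged replicate 6 was low and 8w replicate 7 high, so the groups of the later set overlapped. The log2 difference was 0.89 ± 0.23 against 8 weeks (adjusted p = 0.0119, limma), with 1.54 in the earlier and 0.59 in the later set. Against 5 weeks it was 0.78 ± 0.23 (adjusted p = 0.0194, limma), a call lost without aged replicate 1 (0.0507) or aged replicate 2 (0.0533).

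The other mitochondrial genes did not pass. mt-Nd4, another pumping subunit, differed by 0.45 against 8 weeks (adjusted p = 0.127, limma) and by 0.53 against 5 weeks (adjusted p = 0.0601, limma). mt-Nd1, which lies beside the ubiquinone site, differed by 0.22 and 0.24, and mt-Nd2, a pumping subunit, by 0.19 and 0.27. In the earlier set mt-Nd4 had 987 and 1197 CPM in aged libraries, against 414 to 696 CPM in younger ones, and in the later set 2594 to 3910 CPM, against 1810 to 3620 CPM. mt-Nd2 had 908 and 1102 CPM against 490 to 732 CPM in the earlier set, and 1619 to 2664 CPM against 1540 to 2935 CPM in the later set. mt-Nd1 had 1595 and 2405 CPM against 939 to 1674 CPM in the earlier set, and 2834 to 4405 CPM against 2653 to 4813 CPM in the later set. The groups were apart for mt-Nd4 and mt-Nd2 in the earlier set and overlapped in the later set. The earlier set has only 2 aged and 4 younger libraries, and the share of all genes apart there was not counted. In that set alone 28.2% and 20.4% of all genes were called against 8 and 5 weeks, so being apart there is no result about these 2 genes.

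The CPM of mt-Nd6 were also raised relative to those of mt-Nd1, a gene of the other strand, though reads carry no strand information. The ratio of mt-Nd6 to mt-Nd1 was 0.246 to 0.429 (median 0.311) in the 6 aged libraries. It was 0.174 to 0.269 (median 0.216) at 8 weeks and 0.182 to 0.255 (median 0.219) at 5 weeks. Only aged replicate 5 lay within the younger range; in the later set no library overlapped, with 0.246 to 0.387 in aged and 0.174 to 0.228 in younger libraries. This ratio was computed after the values of both genes had been seen and is given with no test. The ratio of mt-Nd5 to mt-Nd1 in the later set was 0.401 to 0.636 in aged and 0.215 to 0.642 in younger libraries. That of mt-Nd5 to mt-Nd4 was 0.438 to 0.859 and 0.320 to 0.923. The groups overlapped for both in the later set and were apart in the earlier set. How many other gene pairs are apart was not counted.

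**Figure D2:**
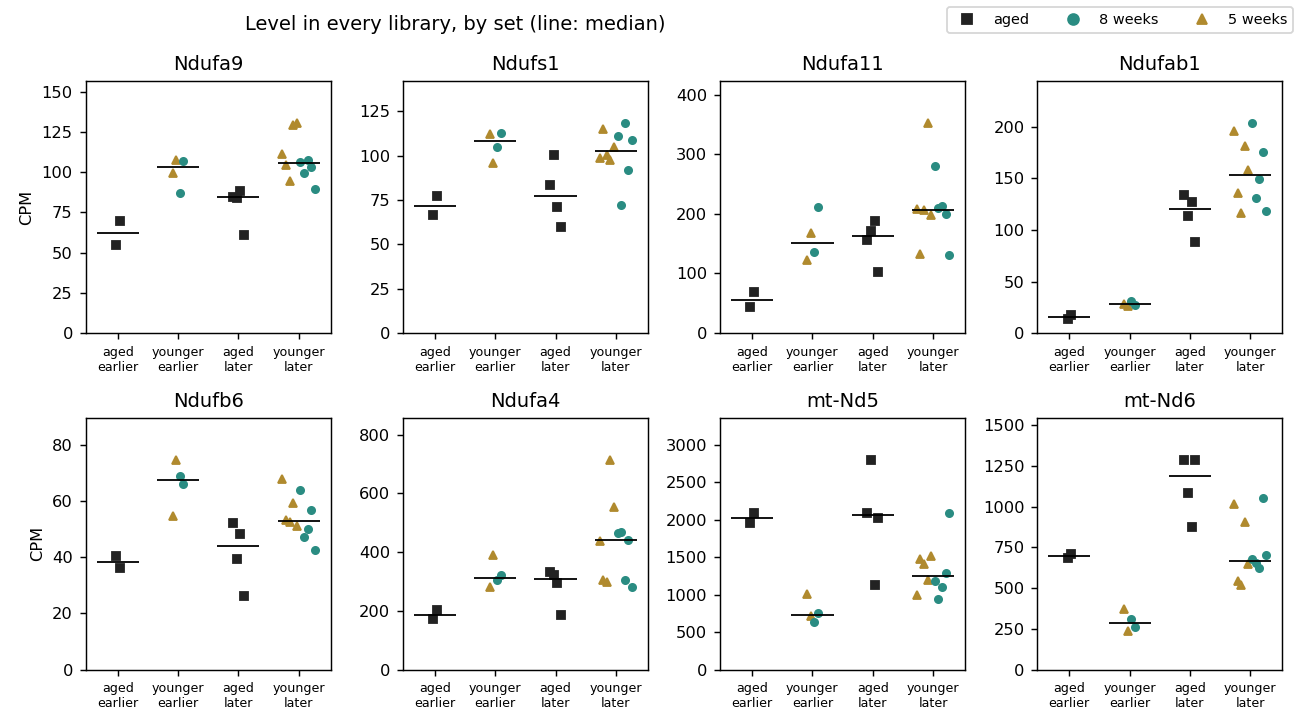
CPM of 8 genes in every library, in aged and younger libraries of the earlier and the later set, with black squares for aged, green circles for 8 weeks and ochre triangles for 5 weeks; lines are medians. The aged libraries of the earlier set lie outside the younger range in all 8 panels, and in the later set every aged library is below every younger one for Ndufa9. The 8 genes are the members called in these same libraries, so the separation is no further support for the calls.

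Ndufa9 encodes an accessory subunit next to the ubiquinone-reducing module (chr6:126821721-126849136, minus strand). In the earlier set it had 55.0 and 69.4 CPM in aged libraries, against 87.2 to 108 CPM in younger ones. Its later-set values were 84.8, 84.2, 88.0 and 60.9 CPM in aged libraries, against 89.6 to 131 CPM (median 105) in younger ones. All 6 aged libraries were below every younger library of their own set, as for 1.95% of the 12791 genes and no other member. The log2 difference was -0.44 ± 0.12 against 8 weeks (adjusted p = 0.0174, limma), a call lost without aged replicate 1 (0.0529) or 8w replicate 2 (0.0506). Against 5 weeks it was -0.59 ± 0.12 (adjusted p = 0.00230, limma) and held without any of the 20 libraries.

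Ndufs1 encodes the largest subunit of the NADH-oxidising arm, which carries iron-sulphur clusters (chr1:63143596-63176833, minus strand). It had 66.3 and 77.0 CPM in aged libraries of the earlier set, against 96.0 to 113 CPM in younger ones. The later set gave 83.6, 100.3, 71.3 and 59.9 CPM in aged libraries, against 72.0 to 118 CPM (median 103) in younger ones. The later groups overlapped, with 8w replicate 4 low. The log2 difference was -0.43 ± 0.13 against 8 weeks (adjusted p = 0.0350, limma), a call lost without any of aged replicates 1, 2, 6 and 7 or 8w replicates 1, 2, 3, 5 and 7 (0.0549 to 0.0868). Against 5 weeks it was -0.45 ± 0.13 (adjusted p = 0.0216, limma), lost without aged replicate 1 (0.0549) or aged replicate 7 (0.0513).

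Ndufa11 and Ndufb6 encode accessory subunits of the membrane arm, and Ndufab1, counted with it here, is also the acyl carrier protein of mitochondrial fatty acid synthesis. Ndufa11 (chr17:56717767-56722141, plus strand) had 43.6 and 68.2 CPM in aged libraries of the earlier set, against 123 to 211 CPM in younger ones. Its later-set values were 102 to 188 CPM in aged libraries, against 131 to 352 CPM (median 207), and the groups overlapped. Its log2 difference against 8 weeks was -0.79 ± 0.25 (adjusted p = 0.0348, limma), with -1.61 in the earlier and -0.42 in the later set. This call was lost in turn without aged replicate 1, 2 or 7 or 8w replicate 1, 2, 3 or 5 (0.0522 to 0.102). Against 5 weeks it was -0.76 ± 0.25 (adjusted p = 0.0337, limma), lost without aged replicate 1, 2 or 7 or 5w replicate 1, 2 or 6 (0.0511 to 0.0981).

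Ndufb6 (chr4:40270591-40279421, minus strand) had 40.4 and 36.2 CPM in aged libraries of the earlier set, against 54.5 to 74.6 CPM in younger ones. The later set gave 26.3 to 52.1 CPM in aged libraries, against 42.5 to 67.9 CPM. Its log2 difference was -0.49 ± 0.16 against 8 weeks (adjusted p = 0.0372, limma), lost without aged replicate 1, 2 or 7 or 8w replicate 1, 2, 3, 5 or 6 (0.0504 to 0.0891), with quantile normalization (0.0687) and with voom weights (0.0581), and -0.56 ± 0.16 against 5 weeks (adjusted p = 0.0155, limma), which held without any library. Exons of Smim27 on the other strand cover 39.0% of its exon bases, and reads there cannot be assigned without strand.

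Ndufab1 (chr7:122085403-122101886, minus strand) had 13.3 and 17.0 CPM in aged libraries of the earlier set, against 26.3 to 31.5 CPM in younger ones. In the later set it had 88.4 to 134 CPM in aged libraries, against 116 to 204 CPM. Its log2 difference was -0.57 ± 0.16 against 8 weeks (adjusted p = 0.0193, limma), lost without aged replicate 1 (0.0589) or 8w replicate 1 (0.0510), and -0.56 ± 0.16 against 5 weeks (adjusted p = 0.0187, limma), lost without aged replicate 1 (0.0535). With voom weights neither passed (0.0818 and 0.0679). The groups were apart in the earlier and overlapped in the later set, and the share of all genes apart in the earlier set was not counted.

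Ndufa4 (chr6:11900292-11907497, minus strand) fell against 5 weeks. It had 171 and 202 CPM in aged libraries of the earlier set, against 283 to 390.0 CPM in younger ones, and 186 to 332 CPM in the later set, against 281 to 715 CPM. The log2 difference was -0.71 ± 0.21 (adjusted p = 0.0188, limma) and held without any library. Against 8 weeks it was -0.56 (adjusted p = 0.0689, limma).

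No assembly factor passed in either comparison. Ndufaf4, which acts early in the assembly of the complex, had 8.68 and 20.3 CPM in aged libraries of the earlier set, against 26.7 to 47.0 CPM in younger ones. In the later set it had 21.1 to 37.6 CPM in aged libraries, against 16.6 to 65.8 CPM, where the lowest value was 8w replicate 4. Its log2 difference was -0.84 against 8 weeks (adjusted p = 0.0522, limma), and without 8w replicate 4 it was -1.06 (0.00469). Against 5 weeks it was -0.63 (adjusted p = 0.123, limma). Ndufaf6 had low levels, with 2.97 and 5.06 CPM in aged libraries of the earlier set, against 6.99 to 11.2 CPM in younger ones. In the later set it had 4.10 to 6.23 CPM in aged libraries, against 3.17 to 9.01 CPM, with 8w replicate 4 again lowest. It differed by -0.53 against 8 weeks (adjusted p = 0.0816, limma) and -0.55 against 5 weeks (0.0603). Without 8w replicate 4 these differences passed (0.00896 and 0.0215). For both genes this library was singled out after its low values were seen. Without it, calls over all genes against 8 weeks also rose, from 2196 to 2377. Ndufaf6 passed against 8 weeks with no other single library left out, and against 5 weeks also without aged replicate 6 (0.0458). Ndufaf4 passed against 8 weeks also without aged replicate 4 (0.0387) or 5w replicate 5 (0.0455).

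By module, 1 of 9 genes of the NADH-oxidising module, 1 of 7 of the ubiquinone module and 3 of 20 accessory genes of the membrane arm were called lower in each comparison, shares of the same order as the 8.53% and 9.41% of all genes called lower. The medians against 8 weeks were -0.19, -0.23 and -0.21. Among nuclear subunits with positive estimates, Ndufa6 differed by 0.29 against 8 weeks (adjusted p = 0.360, limma) and 0.23 against 5 weeks.

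Between 8-week and 5-week uteri no member passed. Of 12791 genes, 0 (0%) were called with limma or with voom weights, and at an unadjusted p below 0.05 there were 139 genes and 0 members. The medians were -0.04 for nuclear subunits, -0.01 for assembly factors and 0.03 for mitochondrial genes, and the members lay between -0.21 and 0.21.

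Summed over the 5 mitochondrial and the 38 nuclear subunit genes, the ratio of mitochondrial to nuclear CPM was 2.20 and 2.84 in aged libraries of the earlier set, against 0.713 to 1.37 in younger ones. In the later set it was 1.91 to 3.53 in aged libraries, against 1.82 to 3.08 (median 2.16) in younger ones, and the groups overlapped. The nuclear sum was 2645 to 4883 CPM in aged libraries, against 3271 to 6328 CPM in younger ones. In such bulk tissue, fewer cells of a type and less RNA per cell cannot be told apart.

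**Figure D3:**
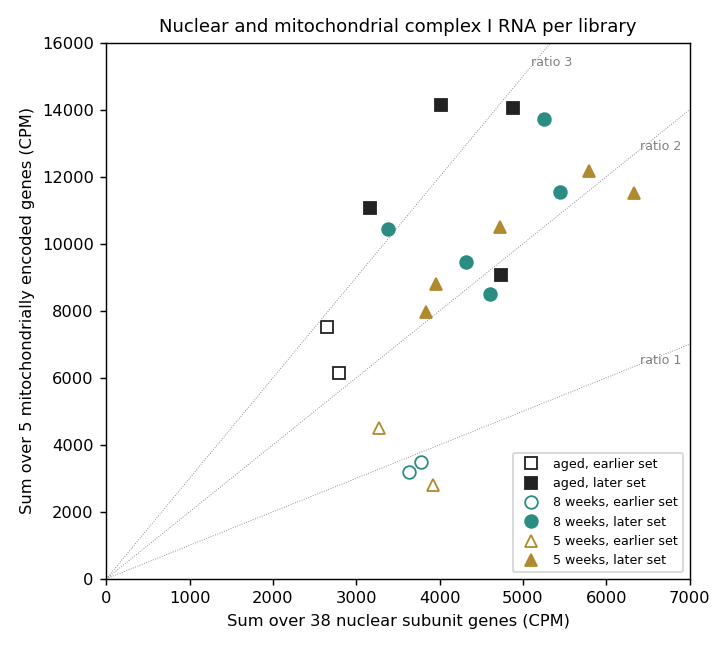
Summed CPM of the 5 mitochondrial genes (vertical) against that of the 38 nuclear subunit genes (horizontal), 1 point per library, with open symbols for the earlier and filled ones for the later set and dotted lines at fixed ratios. The 2 aged libraries of the earlier set, at ratios of 2.20 and 2.84, stand apart from the 4 younger ones of that set, at 0.713 to 1.37.

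Many members differed between the library sets. In the later set 30 of 51 members were higher and 1, Ndufb8, was lower (-0.54), while over all genes 20.5% were called higher and 38.3% lower. The median difference, later minus earlier, was 0.44 for nuclear subunits, 0.42 for assembly factors and 1.30 for mitochondrial genes, against -0.20 over all genes. TMM scaling moved the median over all genes to 0.03 and quantile normalization to -0.01, and the medians of the nuclear subunits (0.68 and 0.75) and mitochondrial genes (1.54 and 0.86) stayed above it. The steps were large for Ndufb4 (65.3 ± 22.1 CPM in the later and 5.88 ± 0.77 CPM in the earlier set, SD, n = 14 and 6; log2 difference 3.20), Ndufs5 (85.4 and 12.8 CPM; 2.67) and Ndufab1 (145 and 23.9 CPM; 2.54). Among mitochondrial genes they were 2.04 for mt-Nd4, 1.60 for mt-Nd2, 1.30 for mt-Nd1, 1.1 for mt-Nd6 and 0.48 for mt-Nd5.

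Of the genes with a set difference just given, Ndufb4, Ndufs5, Ndufab1 and mt-Nd4 have the largest shares of sequence in near-copies. Of the 60-base windows of their protein-coding transcripts, 36.3% also occurred in an annotated pseudogene for Ndufb4 (Ndufb4c), 19.3% for Ndufs5 (BC002163), 8.98% for Ndufab1 (Gm4459) and 61.9% for mt-Nd4 (Gm28439). With windows of 150 bases these shares were 29.3%, 7.62%, 5.25% and 59.2%. The shares of 60-base windows were 7.15% for mt-Nd2 and 4.42% for mt-Nd5, and no window of mt-Nd1 or mt-Nd6 was shared. Ndufs3 and Ndufa12 also had high shares of 60-base windows, 31.4% and 24.5%, with set differences of 0.75 and 0.74. Over the 38 nuclear subunits the Spearman rho of the set difference with the share of 60-base windows was 0.46 and with exon length -0.08, as a description of genes that share libraries. The labels name reads of 60 and of 150 bp without assigning them to libraries, and the part of read length in the difference was not tested. The treatment of reads with more than 1 match in the counting is not stated, so levels of Ndufb4, Ndufs5, Ndufab1, mt-Nd4, Ndufs3 and Ndufa12 are uncertain.

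**Figure D4:**
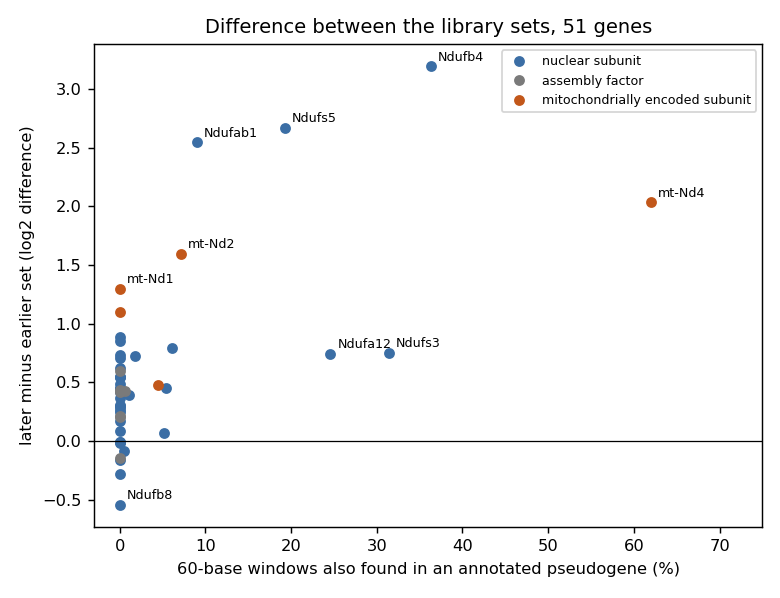
Log2 difference between the later and the earlier library set (vertical) against the share of 60-base windows also found in an annotated pseudogene (horizontal), 1 point per gene, coloured by class. Ndufb4, Ndufs5 and Ndufab1, at 3.20, 2.67 and 2.54, stand above all other members; Ndufs3 and Ndufa12 have high shares and differences of 0.75 and 0.74.

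Most nuclear subunits varied together between libraries of 1 group and set. Each member's deviations from its group and set mean were correlated with the mean of the other nuclear subunits over the 20 libraries. The median r was 0.86 for nuclear subunits, 0.49 for assembly factors and 0.41 for mitochondrial genes. Ndufs8, a core iron-sulphur subunit, was highest at 0.97. Ndufb8, a membrane-arm subunit, at -0.24 and Ndufs1 at -0.04 stood apart among nuclear subunits, and mt-Nd5 was lowest of all at -0.57. The genes outside the family whose deviations were most like the nuclear mean were Mrps24 (0.98), Rex1bd (0.98), Dpm3 (0.97), Mrps21 (0.97) and Elob (0.97). Over the 38 nuclear subunits the Spearman rho of this r with exon length was -0.35. How high r is for most other genes was not summarised, so the common variation cannot be called particular to complex I. The genes share libraries and depth, and these values carry no test.

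**Figure D5:**
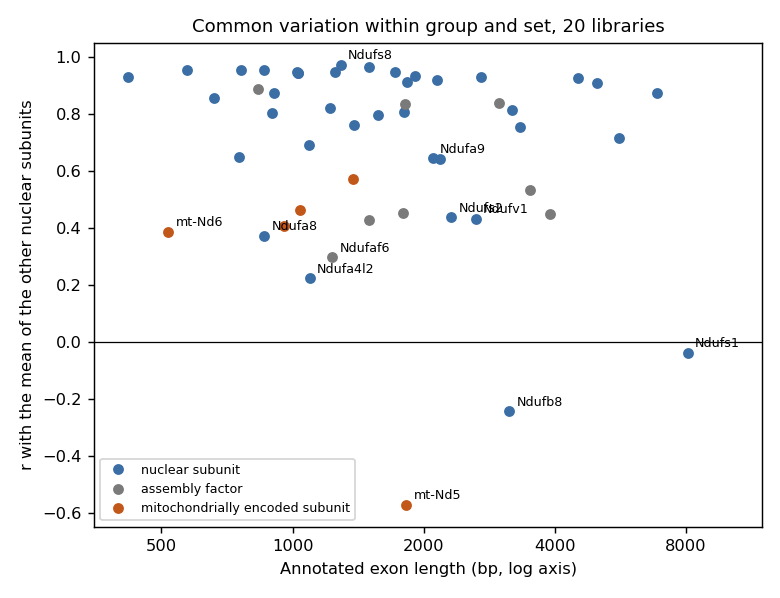
Correlation of each gene's deviations from its group and set mean with the mean of the other nuclear subunits over 20 libraries (vertical) against annotated exon length on a log axis (horizontal), coloured by class. Most nuclear subunits lie above 0.6, while Ndufb8, Ndufs1 and mt-Nd5 lie below 0.

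Genes of the other respiratory complexes were called only in the lower direction in the lists looked at. Of 4 complex II genes, 2 were called lower against 8 weeks and the same number against 5 weeks (Sdhb and Sdhd). The counts were 2 and 4 of 9 for complex III, 1 and 3 of 10 for complex IV and 3 and 6 of 15 for complex V. Over all genes 8.53% were called lower against 8 weeks and 9.41% against 5 weeks, so that the 1 of 10 for complex IV is a share near the background. Cox5a, a complex IV subunit, had the largest difference, -1.04 against 5 weeks (adjusted p = 0.000246, limma). Neither of the 2 further mitochondrial protein genes listed passed: mt-Co1 differed by 0.42 against 8 weeks and 0.50 against 5 weeks, and mt-Cytb by 0.28 and 0.34. The mitochondrial ribosomal RNAs mt-Rnr1 and mt-Rnr2 did not pass.

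Of 14 further assembly factors 1 passed, Acad9, at -0.57 against 8 weeks (adjusted p = 0.0480, limma) and -0.64 against 5 weeks (0.0224). Of 15 genes for transcription and handling of mitochondrial RNA, 1 passed in each comparison: Pnpt1, which in human cells degrades mitochondrial RNA. It had 26.1 to 59.2 CPM (median 33.7) in aged libraries, against 49.7 to 86.3 CPM (median 71.6) in younger ones, and differed by -0.96 ± 0.18 against 5 weeks (adjusted p = 0.00106, limma), with 71.4 CPM as the 8-week median and an adjusted p of 0.00108 against 8 weeks. Of 9 regulators of mitochondrial biogenesis, 1 rose: Ppargc1a, a transcriptional coactivator, had 4.10 to 27.6 CPM (median 13.4) in aged libraries, against 1.88 to 8.44 CPM (median 6.06) in younger ones. Its difference was 1.15 ± 0.28 against 8 weeks (adjusted p = 0.00946, limma) and 1.00 ± 0.28 against 5 weeks (0.0163). Each of these counts of 1 is a share at or near that of all genes called in its direction (8.53% and 9.41% lower, 8.64% and 12.7% higher).

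Some of the marker lists of other cells held called genes in the same libraries. Over all genes, 8.53% were called lower against 8 weeks and 9.41% against 5 weeks, and 8.64% and 12.7% higher. All 8 cell cycle genes were called lower in both comparisons, with a summed level of 114 to 502 CPM in aged and 463 to 2245 CPM in younger libraries. Of 6 leukocyte genes 3 were called higher in both, with 1467 to 3513 CPM in aged and 394 to 2416 CPM in younger libraries. Of 4 red blood cell genes 4 and 0 were called higher, with 51.8 to 281 CPM in aged and 16.1 to 156 CPM in younger libraries. Of 4 listed adipocyte genes 3 and 2 were called higher, with 173 to 1590 CPM in aged and 101 to 960 CPM in younger libraries; the defining genes Adipoq, Plin1 and Cidec were not among the listed genes. Of 8 smooth muscle genes 0 and 2 were called higher, with 2679 to 25984 CPM in aged and 1462 to 18669 CPM in younger libraries. Of 6 stroma genes 1 and 2 were called lower, with 4352 to 10465 CPM in aged and 6066 to 13746 CPM in younger libraries. These were Col3a1 and, against 5 weeks only, Col1a1. Dcn (0.44 and 0.66) and Lum (0.38 and 0.72) had positive estimates and were not called, and 4 of the 6 were negative. Of 7 epithelial genes 1, Cldn4, was called higher in both, and 4 had negative estimates. The epithelial genes summed to 1333 to 4660 CPM in aged and 1499 to 6049 CPM in younger libraries. The 1 of 6 and 1 of 7 are shares of the same order as over all genes. Of 4 oviduct genes looked for, Ovgp1 alone was listed (Foxj1, Tekt1 and Ccdc153 were not). It had 9.57 to 1290 CPM in aged and 1.32 to 620 CPM in younger libraries, and was called higher against 5 weeks (log2 difference 3.40, adjusted p = 0.0334, limma). Of 3 listed skeletal muscle genes (Acta1, Tnnt3 and Mylpf) none was called, with 17.0 to 150 CPM in aged and 23.3 to 388 CPM in younger libraries, and the defining genes Ckm, Myh4, Myh1 and Atp2a1 were not among the listed genes. The part of these cell types in the complex I results was not tested.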

How the data were processed

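Whole uteri of 3 age groups were profiled by RNA sequencing. The values deposited by the authors are CPM: gene counts brought to a common sum over the 12791 listed genes. Tools named in the submitters' processing notes, without roles, are STAR, fastp, edgeR and featureCounts, with the build GRCm38. Of 21 files 20 held numbers; aged replicate 3 has no column and was not analysed here. Columns were mapped to samples by header. CPM values were whole multiples of 1 read within 1e-06, which gave total reads.

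From these values log2(CPM + 1) was fitted with limma 3.58.1 (R 4.3.3; lmFit, eBayes with trend) with group and library set over all 20 libraries. P-values were adjusted by Benjamini-Hochberg over all genes of a contrast, with a threshold of 0.05. The script was tested on simulated data. Nothing in the labels says that libraries are separate animals, so p-values measure the spread between these samples. Coordinates and lengths are from GENCODE M21 (GRCm38), promoters from RefSeq (GRCm38.p6).

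Values are given for every member called against 8 or 5 weeks, every mt-Nd gene, and the 2 nuclear subunits and 2 assembly factors with the largest differences. Members and lists were chosen with earlier results of these data known. Alternatives covered pseudocount, low-value filter, scaling, set term, sets alone, replicate block, mapping by file, 2 pairs of libraries left out and each library left out.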

Additional observations from a re-analysis of the deposited data

Results flagged for a closer look

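Of 33 groups of later-set libraries tested with Dixon's criterion for a value far from the rest, 2 had such a library, and chance gives about 1 in 20. Ndufa9 had 60.9 CPM in aged replicate 7, against 84.2 to 88.0 CPM in the other 3 aged libraries of that set. mt-Nd6 had 1050 CPM in 8w replicate 6, against 621 to 705 CPM in the other 4 8-week libraries of that set. Neither library was removed for it.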

How the results depend on the processing

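The number of members called (7 for aged minus 8 weeks, 8 for aged minus 5 weeks, 0 for 8 minus 5 weeks, 31 for the set, 0 for its interaction with age) changed with several settings. Without the set term it was 1 (Ndufa9) and 3 (Ndufa9, Ndufs1 and Ndufb6) for the aged comparisons, with neither mt-Nd5 nor mt-Nd6 called. With the later set alone it was 0 and 0, and with the earlier set alone 19 for aged minus 8 weeks. Attaching columns by file gave 0 and 3, with 9 for the set and 3 for the interaction. Without 5w replicate 3 and 8w replicate 3, chosen after seeing the data, it was 4 for aged minus 8 weeks, and without aged replicates 2 and 5 together, chosen likewise, 4 and 5. Leaving out each library in turn gave 2 to 9, 4 to 10, 0 to 0, 26 to 33 and 0 to 0. The replicate block in place of the set term gave 5, 8 and 0, and Ndufs1 (adjusted p = 0.0685) and Ndufb6 (0.0585) were not called with it against 8 weeks with limma. Deviations of same-numbered libraries correlated above 0.1 in 10 of 19 pairs and of differently numbered ones in 20 of 58. These counts cannot exclude a pairing, as the 2 libraries of a group in the earlier set deviate as mirror images, which repeats their correlations. The numbers were not taken to pair the libraries, and the replicate block above gives the calls if they do. TMM scaling gave 9 and 9, quantile normalization 8 and 10, and voom weights, added after seeing the data, 5 and 8. Of 726 values of the 11 single genes named, 617 kept direction and side of the threshold, 96 lost and 12 gained a call, and 1 reversed: mt-Nd2 in the later set alone, at -0.10 (adjusted p = 0.892) against 8 weeks. The cause was not tested. Tests on whole reads with edgeR and DESeq2 were planned and not run.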
